A study of Mus musculus with 22 samples.

Results

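The comparison described here is that of β-cells from refed mice whose other islet endocrine cells were ablated with diphtheria toxin (DT) against β-cells from refed controls. It takes in 11 of the 22 mice of the series, 6 DT-treated and 5 control, chosen by their labels and by no measured value. The mice were males of mixed background, 3 months old. Every mouse, controls included, carried the GluDTR+ genotype together with SstDTR htz and PpyDTR htz, that is, receptors for diphtheria toxin in glucagon-, somatostatin- and pancreatic polypeptide-expressing cells. They were taken 1 month after ablation, after 8 h without food followed by 2 h of refeeding. The labels name the other group only as control and do not say whether those mice received an injection. Somatostatin, and peptides made from the glucagon gene, also come from cells outside the pancreas, and the labels do not say what became of those cells. The β-cells were sorted by flow cytometry and each library came from a different mouse. The design asks what β-cells do in islets that hold β-cells only.

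Within the islet, β-cells secrete insulin, α-cells glucagon, δ-cells somatostatin and γ-cells pancreatic polypeptide. Glucagon acts on β-cells through receptors that raise cAMP and favour insulin release, while somatostatin acts through inhibitory receptors and restrains it. A meal raises glucose, amino acids and gut hormones, so that β-cells release granules, make new proinsulin and turn on genes for protein and lipid synthesis. The questions open to these libraries are which β-cell transcripts differ at that moment between DT and control mice, and in how many of the mice.

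The 11 libraries held 16803188 to 24988880 counts. The insulin genes took 40.3% to 69.4% of them, as in a preparation made of β-cells. Levels are CPM, counts scaled to a common library size, by edgeR's TMM method, and fold changes are log2 values, DT minus control, with their standard error (SE) from the edgeR fit. A gene is called where its Benjamini-Hochberg adjusted p from edgeR's quasi-likelihood test over all genes is under 0.05.

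DT mice 13 and 20 stood apart from the other 9 libraries. In mouse 13, Ins1 and Ins2 took 69.4% of counts, against 40.3% to 50.5% in the others, and 15863 genes had a count, against 17447 to 18777. In mouse 20, immune-cell markers summed to 670 CPM, against 27.3 to 82.7 in the other 10 refed libraries. Acinar markers, in contrast, summed to 231 CPM there, against 1970 to 29200 in controls and 6760 to 52700 in the 4 DT mice other than 13 and 20. Mitochondrially encoded genes took 1.36% and 1.59% of counts in mice 13 and 20, and 0.539% to 0.854% in the rest. Results are therefore given with all 11 mice and without mice 13 and 20. The smaller comparison, 4 DT against 5 control mice, was made after these libraries had been seen and removes only DT mice, which its p-values do not take into account.

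**Figure D1:**
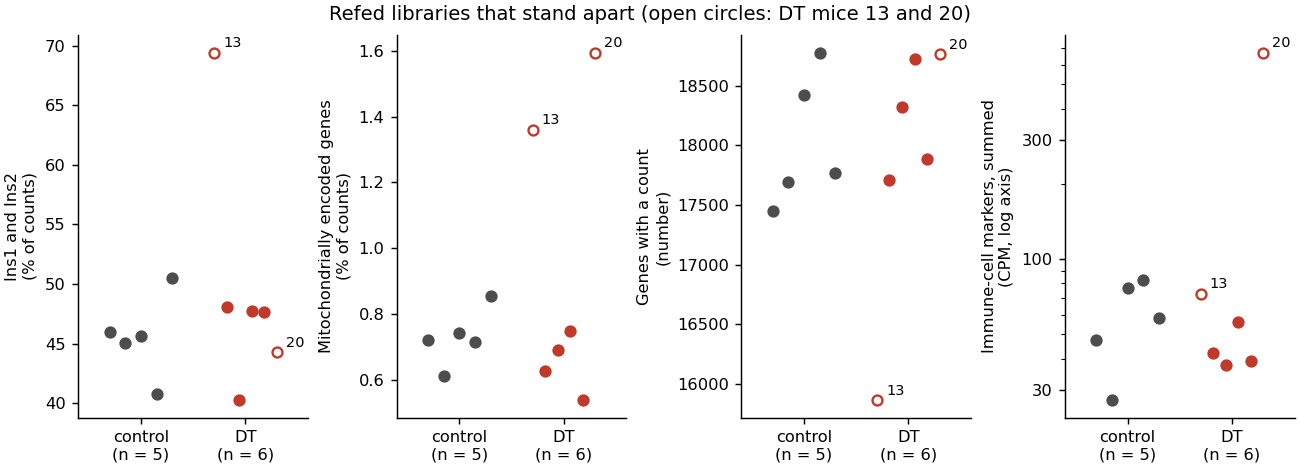
Each circle is 1 refed mouse; the vertical axes give the percent of counts in the insulin genes, the percent in mitochondrially encoded genes, the number of genes with a count and the summed CPM of 27 immune-cell markers (log axis). Open circles are DT mice 13 and 20, which hold 69.4% insulin counts and 670 CPM of immune-cell markers, respectively.

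Glucagon and somatostatin transcripts had nearly gone from the DT libraries, as the check of the treatment labels. Gcg (chromosome 2, 62474530 to 62483653 on GRCm38.p6), the glucagon gene, read 166, 100, 172, 56.0 and 158 CPM in control mice 12, 18, 19, 21 and 22. In the DT mice it ran from 0 to 26.0 CPM with a median of 0.461. All 6 DT mice lay below all 5 controls, and the highest DT value, 284 reads in mouse 13, stood far above the next, 0.793 CPM. The difference in mean log2(CPM + 1) was −5.80 (two-sided exact permutation p = 0.00433, adjusted over 4 hormones p = 0.00866) and −6.56 without mice 13 and 20 (exact permutation p = 0.00794, the smallest that 126 splits can give, adjusted p = 0.0159). In the edgeR fit over all genes Gcg did not pass with all mice (−4.96 ± 1.26, adjusted p = 0.178).

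Sst (chromosome 16, 23889573 to 23891342), the somatostatin gene, read 29.8, 47.2, 71.5, 56.0 and 58.7 CPM in the controls. In DT mice it ran from 0 to 0.494 CPM with a median of 0.0496, and the groups did not overlap. 3 DT libraries held no Sst read, which in mouse 13 allows up to 0.274 CPM, in mouse 15 up to 0.147 CPM and in mouse 16 up to 0.121 CPM. On the log2(CPM + 1) scale the means differed by −5.54 (exact permutation p = 0.00216, the smallest that splits of the 11 mice can give, adjusted p = 0.00866).

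The 2 hormones of the γ-cell behaved otherwise. Ppy, the pancreatic polypeptide gene (chromosome 11, 102099931 to 102101319), read 3.89, 14.7, 126, 35.0 and 31.0 CPM in controls. It ran from 3.46 to 32.6 CPM with a median of 13.5 in DT mice, so that 5 of 6 lay within the control range (difference −0.89, exact permutation p = 0.288). Single mice moved this difference, to −0.32 without control mouse 19, −0.57 without DT mouse 14 and −1.49 without control mouse 12. Pyy, its neighbour on the chromosome and the gene of peptide YY, read 32.2, 38.3, 132, 62.1 and 74.3 CPM in controls. It ran from 15.1 to 61.3 CPM with a median of 23.7 in DT mice (difference −1.08, exact permutation p = 0.0671, adjusted p = 0.0895), and 4 of 6 lay below the lowest control.

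In libraries of sorted cells, fewer cells of a type and less RNA per cell cannot be told apart. The source of the Gcg and Sst reads in control libraries, a few α- and δ-cells in the sort or the β-cells, was not tested. Of 12 tested α-cell markers, 5 lay above 0 with all mice and 0 were called, and without mice 13 and 20 Gcg was the 1 called. The list's 18 markers summed to 1140 to 1760 CPM in controls and 1230 to 1690 CPM in DT mice. Gcg gave 56.0 to 172 CPM of the control sums. Most of each sum came from other members, so the sum does not follow Gcg. Of 12 δ-cell markers, the 10 with a count in the series summed to 469 to 652 CPM in controls and 362 to 586 CPM in DT mice. Lepr, among these 10, was at 0 in all 11 libraries, as were Bhlhe22 and Nts, which had no count. Of 6 tested markers in each of the δ- and γ-cell lists, Sst was the 1 called.

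**Figure D2:**
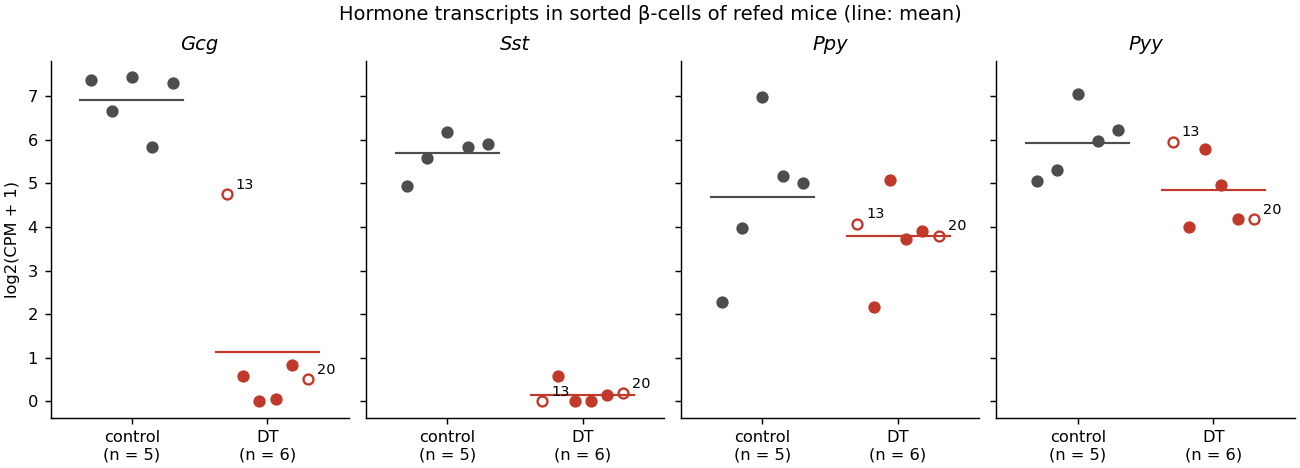
Log2(CPM + 1) of the 4 hormone genes in each refed mouse, control and DT side by side, with the group mean as a line. Gcg and Sst do not overlap between groups, and DT mouse 13 holds the highest Gcg value among DT mice, 26.0 CPM; Ppy and Pyy overlap.

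With all 11 mice, 5 of 14064 tested genes were called, 0.0356% of them, 3 higher (0.0213%) and 2 lower (0.0142%) in DT mice. They were Sst, the methanethiol oxidase gene Selenbp1, the imprinted Notch ligand relative Dlk1, the solute carrier gene Slc35f1 and the homeobox gene Duxbl1. An unadjusted p under 0.05 was reached by 792 genes higher (5.63%) and 618 lower (4.39%), and 49.4% of all tested genes lay above 0. The number of calls was 13 without DT mouse 13 and 52 without DT mouse 20. All 5 were also called without mice 13 and 20. With the 11 refed libraries alone 2 genes were called, both lower, and limma voom on all libraries called 1, also lower. In these 2 fits the higher calls, Selenbp1, Dlk1 and Duxbl1, were thus not made. DESeq2 called 86 genes, 62 of them higher.

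Selenbp1 (chromosome 3, 94933083 to 94944758) read 0.93, 1.73, 1.16, 1.04 and 0.712 CPM in the controls. In DT mice it ran from 2.52 to 8.31 CPM with a median of 4.39, every DT mouse above every control. It rose by 2.12 ± 0.34 (SE, adjusted p = 0.0227), or 2.22 ± 0.37 without mice 13 and 20.

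Dlk1 (chromosome 12, 109452485 to 109463336), whose product is a membrane protein of immature and endocrine cells, read 1.06, 1.59, 1.3, 1.89 and 0.842 CPM in the controls. In DT mice it ran from 2.74 to 10.4 CPM with a median of 5.25, again without overlap. It rose by 2.17 ± 0.40 (adjusted p = 0.0496), and mice 13 and 20, at 2.74 and 3.28 CPM, were the lowest DT mice.

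Slc35f1 (chromosome 10, 52690501 to 53111622), a relative of nucleotide sugar transporters, read 3.55, 1.41, 2.59, 2.92 and 2.59 CPM in the controls. In DT mice it ran from 0.293 to 0.968 CPM with a median of 0.733, every DT mouse below every control. Its log2 fold change was −1.90 ± 0.33 (adjusted p = 0.0380), a fall in all 6 DT mice.

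Duxbl1 (chromosome 14, 25978560 to 25990166) was near the detection limit, at no more than 0.0471 CPM in controls and 0 to 1.19 CPM in DT mice, with mouse 13 at 0 (4.72 ± 0.83, adjusted p = 0.0380). Duxbl genes have near-identical copies, so its counts are uncertain. Of the 5 calls, Sst held in every fit with 1 refed library left out, and without control mouse 12, 19, 21 or 22 or DT mouse 15 it was the single call. Ins1 and Ins2 were not called (0.52 ± 0.24 and 0.30 ± 0.21) and came to 0.14 ± 0.12 and −0.01 ± 0.11 without mice 13 and 20.

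**Figure D3:**
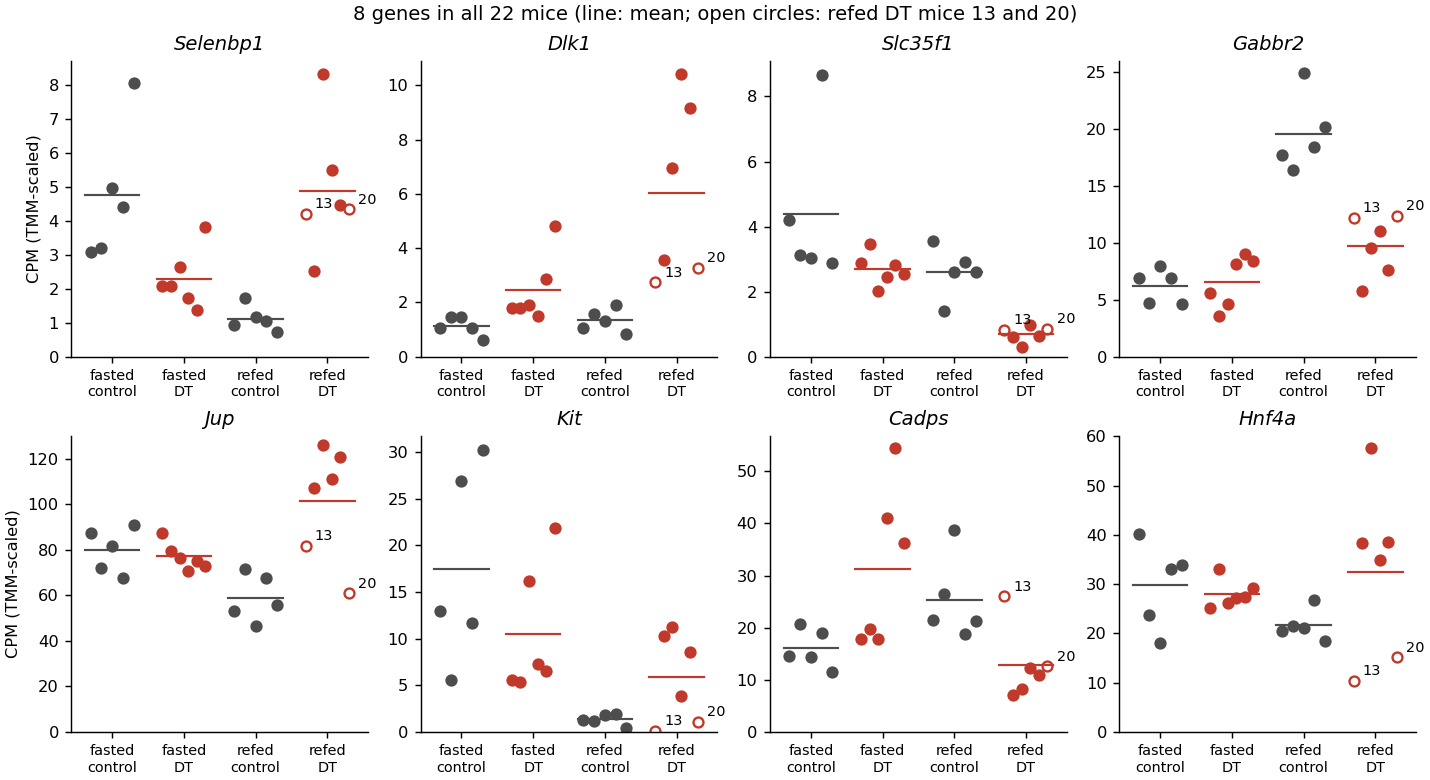
CPM of 8 genes in each of the 22 mice, by feeding state and treatment, with the group mean as a line; open circles are refed DT mice 13 and 20. Selenbp1, Dlk1, Slc35f1 and Gabbr2 do not overlap between the refed groups. Jup, Kit and Cadps separate refed control mice from DT mice 14 to 17 but not from both open circles. For Hnf4a, DT mice 14 to 17 lie above every refed control and both open circles lie below.

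A view that rests on no test is which genes had 6 DT values beyond all 5 control values. There were 139 such genes, 0.988% of those tested: 60 higher (0.427%) and 79 lower (0.562%). With no DT effect, the chance that 6 and 5 mice separate in a given direction is 0.00216. Some of the 139 may therefore separate by chance, and which ones was not tested. With RLE in place of TMM scaling the genes numbered 134, of which 73 were higher and 61 lower. In all 139, mice 13 and 20 lay on the same side of the controls as the other DT mice. At a mean log2 CPM of at least 3 the non-overlapping genes numbered 39 higher and 62 lower. The 12 largest in each direction are described here, none of them called with all mice apart from Sst.

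Among those lower in DT mice, besides the hormones, was Spock1 (chromosome 13, 57421195 to 57908332), a secreted proteoglycan. It read 42.5, 22.2, 29.4, 20.5 and 27.9 CPM in controls, and 4.40 to 18.1 CPM with a median of 10.2 in DT mice (−1.50 ± 0.30, adjusted p = 0.112). Without mice 13 and 20 it fell by 1.65 (SE 0.36, adjusted p = 0.0334).

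Gabbr2 (chromosome 4, 46662318 to 46991714), a subunit of the GABA-B receptor through which the β-cell transmitter GABA acts, read 17.7, 16.4, 24.9, 18.4 and 20.2 CPM in controls. It ran from 5.78 to 12.4 CPM with a median of 10.3 in DT mice, clear of all controls (−1.0 ± 0.24, adjusted p = 0.168). Without mice 13 and 20 it fell by 1.18 (SE 0.25, adjusted p = 0.0312). Rgs16, a brake on G protein signalling, read 13.6 to 20.7 CPM in controls and 5.04 to 13.4 CPM in DT mice (−0.80 ± 0.21, adjusted p = 0.191). Lpar1, a lysophosphatidic acid receptor, read 10.5 to 17.4 and 4.20 to 10.3 CPM (−0.75 ± 0.21). Rgs16 and Lpar1 were not called in either comparison.

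The most abundant of the lower genes was Enpp5, a membrane phosphodiesterase relative, at 220, 146, 155, 195 and 164 CPM in controls and 73.8 to 133 CPM, median 116, in DT mice. It was −0.64 ± 0.13 with all mice (adjusted p = 0.112), and fell by 0.54 (SE 0.12, adjusted p = 0.0312) without mice 13 and 20. Gas2, a cytoskeletal protein, lay at 10.7 to 15.7 CPM in controls and in the narrow band of 6.10 to 6.99 CPM in DT mice (−1.04 ± 0.22, adjusted p = 0.159). Lmtk2, Capn1, Abhd3 and Cdc14b, which encode a kinase, a calcium-dependent protease, a hydrolase and a phosphatase, had values from −0.73 to −0.63 and no call.

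Among those higher in all 6 DT mice, Srsf7, a splicing factor of the SR family, was the most abundant of those named. It read 137, 136, 110, 133 and 113 CPM in controls and 160 to 192 CPM, median 171, in DT mice (0.47 ± 0.12, adjusted p = 0.182). Mid1ip1 (chromosome X, 10717365 to 10719702), a partner of the fatty acid synthesis enzyme acetyl-CoA carboxylase, lay in a narrow band in controls: 30.3, 29.6, 26.2, 27.6 and 27.7 CPM. In DT mice it ran from 32.0 to 50.0 CPM with a median of 41.0 (0.55 ± 0.13, adjusted p = 0.168), and it rose by 0.70 ± 0.12 (adjusted p = 0.0100) without mice 13 and 20. Elavl4, a neuronal RNA-binding protein that β-cells also make, read 15.5 to 20.3 CPM in controls and 23.3 to 31.5 CPM in DT mice. It was 0.51 ± 0.12 with all mice and was called at 0.57 ± 0.13 (adjusted p = 0.0357) without mice 13 and 20.

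Cibar2 was likewise called only without the 2 mice, at 0.77 ± 0.17 (adjusted p = 0.0328), and was 0.73 ± 0.16 with them. Mouse 13 had the highest value of the 6 for Cyp4f13, Cibar2, Pdlim7, the ciliary gene Cc2d2a, Emsy and Hpcal1, for example 29.7 CPM of Cyp4f13 against 11 to 12.8 CPM in the other 5 DT mice. Apart from Cibar2 these had no call in either comparison, nor did the p53-inducible Trp53i11, the transcription factor Tcf12 and the Y-linked translation factor Eif2s3y (0.44 to 0.58 with all mice).

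Without mice 13 and 20, 175 of 14295 genes were called, 1.22% of them: 114 higher (0.797%) and 61 lower (0.427%). These calls were made from mice 14, 15, 16 and 17, and whether they extend to mice 13 and 20 was not tested. In mouse 13, 106 of the 175 lay on the called side of the mean of the same 5 controls that entered the calls, and in mouse 20, 88 did. In the 6 fasted DT mice, against the fasted control mean, 83 to 113 did. Limma's voom with a quality weight for each library gave mouse 13 a weight of 0.169, against 0.691 to 1.68 in the other refed libraries, so that mouse 13 counted little. It called 78 genes (34 higher, 44 lower), and 64 of the 175 were among them. The number also turned on single mice, from 8 calls without DT mouse 15 to 326 without control mouse 18. The 8 genes called in each of the 9 fits with 1 mouse left out were Jup, Mapk13, Plscr3, Syt16, Dlk1 and Duxbl1, all higher, and Sgcz and Hykk, both lower; apart from Dlk1 and Duxbl1 they were chosen after their values were seen.

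Jup (chromosome 11, 100368856 to 100397839) had the smallest adjusted p. It encodes plakoglobin, which ties cadherins at cell-cell junctions to the cytoskeleton. It read 53.2, 71.7, 46.4, 67.8 and 55.8 CPM in controls, and 107, 126, 111 and 121 CPM in DT mice 14 to 17. Mouse 13 had 81.8 CPM, above every control, and mouse 20 had 60.8 CPM, within their range. Jup rose by 1.00 ± 0.12 (adjusted p = 0.000832) without the 2 mice, and was 0.78 ± 0.15 (adjusted p = 0.106) with them.

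Mapk13, the δ isoform of p38 kinase, read 2.40 to 5.95 CPM in controls and 8.75 to 16.9 CPM in mice 14 to 17 (1.68 ± 0.26, adjusted p = 0.0052), with mice 13 and 20 at 5.85 and 4.52 CPM. Plscr3, a phospholipid scramblase gene, read 15.2 to 22.8 CPM in controls, 29.1 to 41.9 CPM in mice 14 to 17 and 48.4 and 16.2 CPM in mice 13 and 20 (1.03 ± 0.15, adjusted p = 0.00475). With all mice Mapk13 was 1.36 ± 0.30, Plscr3 0.97 ± 0.20 and Syt16 1.92 ± 0.44, none of these 3 called. Syt16, a synaptotagmin relative, rose by 2.35 ± 0.36, from 0.727 to 1.10 CPM in controls to 1.90 to 7.18 CPM in the 4 mice.

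At a mean log2 CPM of at least 3, the largest rise was that of Kit. Kit (chromosome 5, 75574987 to 75656722), the receptor of stem cell factor, read 1.31, 1.18, 1.81, 1.93 and 0.453 CPM in controls and 10.3, 11.2, 3.87 and 8.57 CPM in mice 14 to 17. Mice 13 and 20 had 0.0914 and 1.09 CPM, below and within the control range (2.66 ± 0.55 without them, adjusted p = 0.0303; 2.12 ± 0.71 with them, adjusted p = 0.293). Cd9, a tetraspanin, read 9.52 to 23.9 CPM in controls and 29.1 to 82.7 CPM in mice 14 to 17 (1.72 ± 0.34, adjusted p = 0.0229). Mouse 20 was at 28.9 CPM, above the controls, and mouse 13 at 9.14 CPM, below them. With all mice Cd9 was 1.35 ± 0.40 (adjusted p = 0.243).

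Evpl, a desmosome-associated protein, Ncam1 and the ephrin Efnb1 also rose (1.39 ± 0.26, 0.69 ± 0.16 and 0.69 ± 0.14). With all mice Evpl, Ncam1 and Efnb1 were 0.97, 0.63 and 0.41 and were not called. Ncam1 and Efnb1 were the 2 calls among 27 islet cell contact genes without the 2 mice; 12 of the 27 lay above 0, at a median of −0.08, and 5 (0 in the other direction) had an unadjusted p under 0.05. Over all genes the median was −0.00331 and 49.5% lay above 0. In the same comparison 0.797% of all genes were called higher, and 7.44% were higher at an unadjusted p under 0.05. Duct markers, epithelial genes that include keratins, summed to 601 to 698 CPM in controls and 700 to 835 CPM in DT mice. The sums were barely apart, with control mouse 12 at 698 CPM and DT mice 13 and 17 at 700 CPM. In fasted mice they were 704 to 780 CPM in controls and 682 to 758 CPM in DT mice. Of the 12 tested members, 0 had refed groups that did not overlap. With all mice 10 of 12 tested lay above 0 at a median of 0.30 and 0 were called. Without mice 13 and 20, 9 lay above 0 at a median of 0.12, and the keratin gene Krt7 was called at 0.46 ± 0.10 (adjusted p = 0.0341). The part of duct markers in the other results was not tested.

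Dbn1, an actin-binding protein, rose by 1.24 ± 0.30, and Nptx1, a secreted pentraxin, by 1.66 ± 0.34, against 1.03 and 1.17 with all mice, not called.

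The remaining large rises fell to genes of several functions. Galnt18, an enzyme that starts O-glycosylation, was the most abundant, at 101, 116, 57.7, 48.3 and 49.7 CPM in controls and 211, 318, 163 and 219 CPM in mice 14 to 17. Mice 13 and 20, at 39.2 and 54.2 CPM, did not share its rise (1.63 ± 0.35, adjusted p = 0.0333; 1.17 ± 0.45 with all mice). Ffar4, a receptor for long-chain fatty acids, read 1.35 to 6.32 CPM in controls and 10.7 to 19.7 CPM in mice 14 to 17 (1.88 ± 0.43, adjusted p = 0.0399; 1.47 ± 0.51 with all mice). Within islets this receptor is best known from δ-cells. Mouse 13 had 7.77 CPM, above the controls, and mouse 20 had 1.57 CPM. Calb1, a calcium buffer, Rab31, a vesicle trafficking GTPase, and Tox, Kctd8 and Klhdc8b rose by 1.19 to 1.61, against 1.04 to 1.18 with all mice, where these 5 were not called.

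At the same level, the largest falls without the 2 mice were those of Gcg (−8.63 ± 1.37, adjusted p = 0.0087) and Sst (−8.46 ± 1.38, adjusted p = 0.0100), followed by Kcnh1. Kcnh1 (chromosome 1, 192189144 to 192510159), a voltage-gated potassium channel, read 20.2, 15.9, 26.1, 20.3 and 20.8 CPM in controls and 9.58, 3.13, 3.83 and 5.85 CPM in mice 14 to 17. Mouse 13 shared the low level with 4.75 CPM, and mouse 20 had 30.8 CPM, above every control (−1.86 ± 0.41, adjusted p = 0.0328; −1.09 ± 0.49 with all mice). Necab2, a calcium-binding protein, read 23.2 to 39.8 CPM in controls and 9.48 to 13.2 CPM in mice 14 to 17 (−1.56 ± 0.36, adjusted p = 0.0432; −0.95 ± 0.38 with all mice). Mouse 13 had 36.9 CPM of it and mouse 20 had 21.2. Sh3kbp1, Ttyh1, Gstm2, Ocel1 and Dapp1 fell by 1.16 to 1.34. With all mice these 5 lay between −1.06 and −0.65 and were not called.

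Exocytosis genes called without mice 13 and 20 were 3, all lower, of the 38 tested in the list of insulin granule and exocytosis genes. Cadps (chromosome 14, 12372560 to 12823339), which primes dense-core granules for release, read 21.4, 26.5, 38.7, 18.7 and 21.2 CPM in controls and 7.11, 8.26, 12.2 and 10.9 CPM in mice 14 to 17. Mouse 20 was nearly as low, at 12.6 CPM, and mouse 13 within the control range, at 26.0 CPM. Cadps fell by 1.38 (SE 0.32, adjusted p = 0.0418) and was −0.98 ± 0.33 with all mice (adjusted p = 0.283).

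Sv2a, a glycoprotein of secretory vesicles, read 104, 77.1, 99.4, 107 and 104 CPM in controls and 55.0 to 88.1 CPM, median 67.8, in all DT mice. It fell by 0.54 (SE 0.11, adjusted p = 0.0293) without mice 13 and 20 and was −0.48 ± 0.11 with them. Pcsk1, the protease that begins the cutting of proinsulin, read 600, 585, 615, 699 and 544 CPM in controls and 178 to 607 CPM, median 481, in DT mice. It fell by 0.36 (SE 0.09, adjusted p = 0.0468) without the 2 mice and was −0.46 ± 0.18 with them. The list as a whole had a median of −0.04, with 14 of 38 above 0, 1 higher and 7 lower at an unadjusted p under 0.05. Among all genes 7.44% were higher and 5.48% lower by that mark, and 0.427% were called lower.

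β-cell identity genes were called in both directions. Without the 2 mice 2 of 30 were called higher and 1 lower, at a median of −0.02, and with all mice 0 were called. Without the 2 mice 0.797% of all genes were called higher and 0.427% lower. At an unadjusted p under 0.05, 5 of the 30 were higher and 5 lower (16.7% each), against 7.44% and 5.48% of all genes. Hnf4a (chromosome 2, 163506811 to 163572907), a nuclear receptor whose gene is mutated in a form of familial diabetes, read 20.4, 21.5, 21.1, 26.7 and 18.5 CPM in controls. DT mice 14 to 17 had 38.4, 57.7, 34.8 and 38.6 CPM, while mice 13 and 20 had 10.4 and 15.2 CPM, below every control. Hnf4a rose by 0.98 ± 0.19 (adjusted p = 0.019) without these 2, and was 0.59 ± 0.30 (adjusted p = 0.513) with them.

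Isl1, a transcription factor of all islet endocrine cells, read 109 to 129 CPM in controls, 159 to 192 CPM in mice 14 to 17 and 107 and 102 CPM in mice 13 and 20 (0.51 ± 0.11 without them, adjusted p = 0.0334; 0.30 ± 0.15 with them). Ero1b, the oxidase that serves disulphide bonding of proinsulin, read 1230, 717, 1220, 1350 and 1180 CPM in controls and 571 to 791 CPM in mice 14 to 17. Mice 13 and 20 had 1150 and 1290 CPM (−0.66 ± 0.14 without them, adjusted p = 0.0328; −0.37 ± 0.18 with them). Control mouse 18, at 717 CPM, lay within the span of the 4 DT mice.

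The glucose transporter gene Slc2a2, a marker of mature β-cells, was not called, at −0.66 ± 0.20 (adjusted p = 0.112) without mice 13 and 20, and neither was Ucn3, another such marker, named after its values were seen, at −0.59 ± 0.18 (adjusted p = 0.112). With all mice they were −0.28 ± 0.23 and −0.18 ± 0.22. Of 17 tested immaturity and progenitor genes, 14 lay above 0 in both comparisons, with medians of 0.63 and 0.77. Dlk1 was the one called. Neurog3, the endocrine progenitor factor, read 0 to 0.803 CPM in controls and 0.19 to 4.69 CPM, median 1.81, in DT mice (2.17 ± 0.67, adjusted p = 0.255, with all mice). It sat at a low level, 5 of 6 DT mice lay above every control, and it was not called.

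Receptors for islet hormones and transmitters gave 1 call in each direction. Of 32 tested without mice 13 and 20, Galr1 was called higher and Gabbr2 lower, and the median was −0.12. In that comparison 0.797% of all genes were called higher and 0.427% lower. At an unadjusted p under 0.05, 3 receptors were higher (9.38%) and 6 lower (18.8%), against 7.44% and 5.48% of all genes. Galr1, the inhibitory receptor of galanin, read 32.6, 40.0, 46.8, 39.4 and 38.3 CPM in controls and 54.7 to 68.6 CPM in mice 14 to 17. Mouse 20 had 47.2 CPM and mouse 13 had 23.6 CPM (0.62 ± 0.12, adjusted p = 0.019; 0.39 ± 0.18 with all mice). The incretin receptor gene Glp1r read 474 to 1150 CPM in controls and 510 to 687 CPM in DT mice, wholly inside the control range (−0.47 ± 0.19, adjusted p = 0.396, with all mice). With all mice the calcium-sensing receptor gene Casr was −0.61 ± 0.21 (adjusted p = 0.292), and Gucy2c, a guanylate cyclase receptor, −0.83 ± 0.20 (adjusted p = 0.168).

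Cholesterol synthesis genes had the largest share past an unadjusted p of 0.05 of the 39 lists with tested members, without mice 13 and 20. Of the list 57.1% were higher, against 7.44% of all genes. Cells make cholesterol from acetyl-CoA by the mevalonate pathway, and the factor encoded by Srebf2 turns its enzymes on together when sterols run low. Of 28 genes tested, 25 lay above 0 at a median of 0.60; 16 were higher and 0 lower at an unadjusted p under 0.05, and 1 was called. With all mice 24 lay above 0 at a median of 0.31, with 3 at an unadjusted p under 0.05 and 0 called.

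Fdft1 (chromosome 14, 63145150 to 63181687), which encodes squalene synthase, was the one called. It read 64.4, 54.8, 42.6, 36.2 and 46.5 CPM in controls and 108, 108, 71.4 and 71.5 CPM in mice 14 to 17, with 63.5 and 46.9 CPM in mice 13 and 20. It rose by 0.90 ± 0.21 (adjusted p = 0.0395), and was 0.68 ± 0.21 (adjusted p = 0.255) with all mice. Srebf2 itself read 122, 97.4, 82.7, 106 and 92.8 CPM in controls and 113 to 170 CPM, median 137, in DT mice (0.59 ± 0.15, adjusted p = 0.053, without the 2 mice).

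By mouse, the median of the 28 genes over the control mean was 0.80, 0.52, 0.30 and 0.26 in DT mice 14, 15, 16 and 17. It was −0.38 in mouse 13 and −0.08 in mouse 20. The controls ran from −0.16 to 0.28, so that control mouse 12 lay above DT mouse 17.

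**Figure D4:**
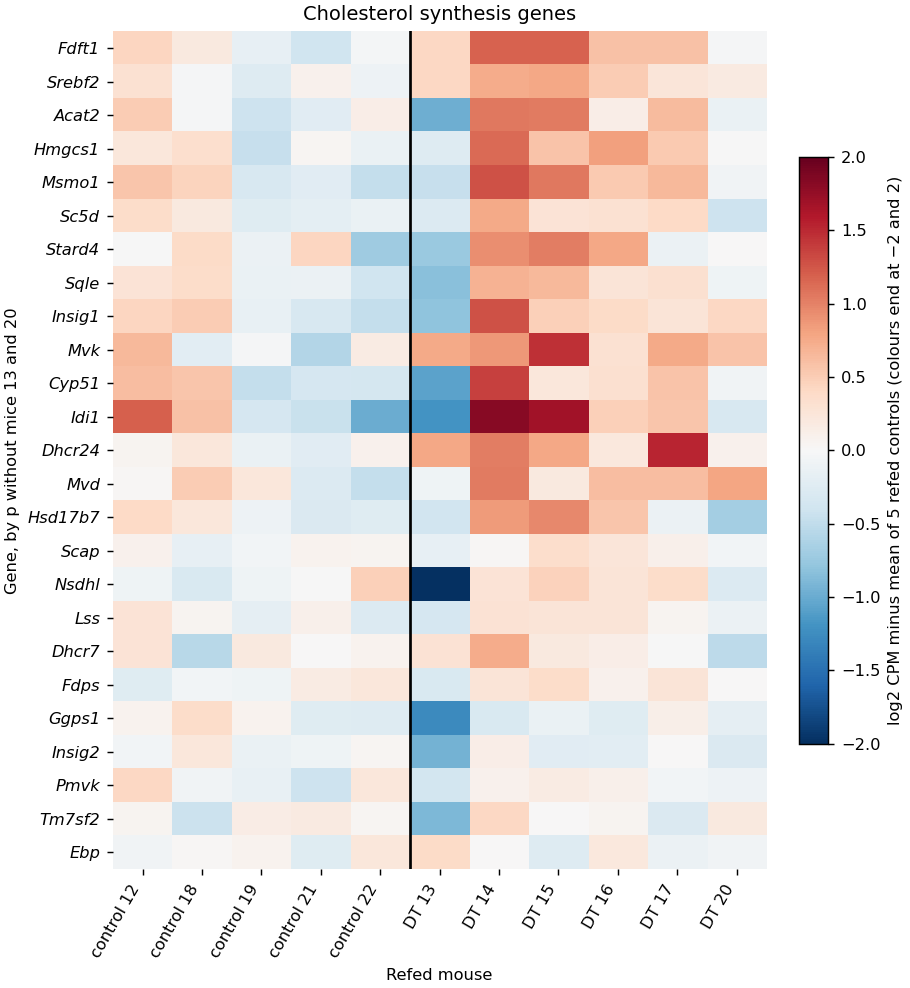
Colour gives the log2 CPM of 25 of the 28 cholesterol synthesis genes (rows, by p without mice 13 and 20) in each refed mouse (columns) minus the mean of the 5 controls; red is higher, blue lower, and colours end at −2 and 2. DT mice 14 to 17 are mostly red, with medians over the 28 genes of 0.26 to 0.80, and mice 13 and 20 are not.

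The promoters of the sterol genes are shown because these members lay on the same side together. RefSeq's promoter table for GRCm38.p6 matched 20 of the 28 genes. In the 250 bases before the start, 1 of the 20 held the sterol regulatory element written as TCACNCCAC on either strand (5.0%), against 1.21% of 10502 tested genes. A CCAAT box, the site of the factor NF-Y, stood in 18 of the 20 (90.0%), against 40.3% of tested genes and 37.5% of all promoters in the table. A match describes the letters and not a bound site. Below are the 150 bases before the start, 5′ to 3′ on the gene's strand, of the 5 matched genes with the smallest p. Capitals mark TCACNCCAC and CCAAT on either strand; the 2 motifs do not overlap in these windows.
Srebf2 (chr15:82147119-82147268, strand +): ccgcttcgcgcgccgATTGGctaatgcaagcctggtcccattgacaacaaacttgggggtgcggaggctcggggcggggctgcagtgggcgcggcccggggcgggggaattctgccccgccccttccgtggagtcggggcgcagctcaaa
Acat2 (chr17:12960726-12960875, strand -): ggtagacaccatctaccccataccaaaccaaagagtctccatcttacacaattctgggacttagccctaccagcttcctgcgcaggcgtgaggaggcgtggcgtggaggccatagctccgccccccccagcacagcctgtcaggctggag
Hmgcs1 (chr13:119690201-119690350, strand +): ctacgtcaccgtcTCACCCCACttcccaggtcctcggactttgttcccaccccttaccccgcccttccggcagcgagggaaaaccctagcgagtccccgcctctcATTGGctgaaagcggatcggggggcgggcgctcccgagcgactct
Msmo1 (chr8:64733579-64733728, strand -): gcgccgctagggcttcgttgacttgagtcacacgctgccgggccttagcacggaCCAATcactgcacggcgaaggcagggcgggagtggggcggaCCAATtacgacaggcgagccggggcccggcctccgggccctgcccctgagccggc
Sc5d (chr9:42264301-42264450, strand -): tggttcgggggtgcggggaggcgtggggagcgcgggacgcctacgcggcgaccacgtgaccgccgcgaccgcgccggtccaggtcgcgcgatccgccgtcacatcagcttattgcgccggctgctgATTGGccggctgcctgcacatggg
Hmgcs1, the synthase at the entry of the pathway, held both motifs and read 35.5, 38.4, 22.3, 31.4 and 28.0 CPM in controls and 25.6 to 67.7 CPM, median 44.7, in DT mice (0.78 ± 0.25, adjusted p = 0.146, without mice 13 and 20). Msmo1, with 2 CCAAT boxes, was 0.87 ± 0.28 (adjusted p = 0.146). Acat2, with neither motif in the window, was 0.75 ± 0.22 (adjusted p = 0.112).

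Genes of fatty acid synthesis were called in both directions. Without mice 13 and 20, 1 of 25 was called higher and 1 lower, at a median of 0.12, against 0.797% and 0.427% of all genes called. At an unadjusted p under 0.05, 7 were higher (28.0%) and 2 lower (8.0%), against 7.44% and 5.48% of all genes. Fads2, a desaturase of polyunsaturated fatty acids, read 12.7, 25.9, 19.6, 16.2 and 14.2 CPM in controls and 30.5 to 45.6 CPM in mice 14 to 17, with 12.9 and 16.8 CPM in mice 13 and 20 (1.11 ± 0.27, adjusted p = 0.0489; 0.77 ± 0.31 with all mice). Lpin1, a phosphatidate phosphatase and coactivator, read 28.6, 25.5, 23, 33.6 and 28.8 CPM in controls and 11.3 to 22.1 CPM in mice 14 to 17. Mouse 13 shared that level at 13.3 CPM, and mouse 20 had 38.3 CPM (−0.82 ± 0.17, adjusted p = 0.0305; −0.55 ± 0.23 with all mice). Fasn and Scd2 were 0.49 ± 0.13 and 1.04 ± 0.30, and Acly, which supplies cytosolic acetyl-CoA, was −0.44 ± 0.16; these 3 were not called.

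Slc37a4, the glucose-6-phosphate transporter of the endoplasmic reticulum (ER), and Maob, a monoamine oxidase, were named after their values were seen. Slc37a4 rose by 0.86 ± 0.17 (adjusted p = 0.019), from 87.0 to 114 CPM in controls to 138 to 217 CPM in mice 14 to 17, and mice 13 and 20 had 90.4 and 92.5 CPM. Maob fell by 0.68 (SE 0.13, adjusted p = 0.019). It read 136 to 220 CPM in controls and 98.6 to 128 CPM in the same 4 mice. With all mice they were 0.58 ± 0.21 and −0.50 ± 0.15 and were not called.

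Most ribosomal protein and splicing factor genes had fold changes slightly above 0 whether or not mice 13 and 20 were kept. The summed level of each list overlapped between the groups. Ribosomal protein genes summed to 3970 to 5000 CPM in controls and 4610 to 6430 CPM in DT mice. Of 78 ribosomal protein genes, 74 lay above 0 with all mice (median 0.21) and 73 without the 2 (median 0.15); 21 and 18 had an unadjusted p under 0.05, all higher, and 0 were called. Among all genes 5.63% were higher by that mark with all mice. Rps19 read 46.8, 40.1, 40.3, 38.8 and 48.2 CPM in controls and 48.9 to 67.6 CPM, median 54.5, in DT mice, without overlap (0.42 ± 0.10, adjusted p = 0.168). Ribosomal protein genes share reads with many pseudogenes, so single values are uncertain.

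Of 57 splicing factor genes, 45 lay above 0 with all mice and 38 without mice 13 and 20, with medians of 0.11 in both. The 57 genes summed to 4310 to 5100 CPM in controls and 4830 to 5920 CPM in DT mice. Srsf7, described above, Ddx39b and U2af1 were beyond all controls in all 6 DT mice. Ddx39b, a helicase of splicing and mRNA export, read 54.2, 52.2, 59.7, 58.2 and 54.1 CPM in controls and 67.9 to 76.4 CPM in DT mice. It was 0.38 ± 0.09 with all mice (adjusted p = 0.165) and rose by 0.40 ± 0.09 (adjusted p = 0.0350) without the 2. Tra2b, a splicing regulator, rose by 0.53 ± 0.10 (adjusted p = 0.019) without them and was 0.35 ± 0.13 with them.

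Most ER chaperone and unfolded protein response genes had fold changes slightly below 0, but their summed levels overlapped between groups. The sums were 12300 to 14600 CPM in controls and 9260 to 15300 CPM in DT mice, with mouse 20 above every control. With all mice 3 of 35 lay above 0 (median −0.17) and without the 2 mice 5 did (median −0.16), where Ero1b was the one call. Without the 2 mice Hyou1, an ER chaperone, was −0.68 ± 0.21 (adjusted p = 0.123) and Derl3, of ER-associated degradation, −0.71 ± 0.21 (adjusted p = 0.116). In mouse 20 Hyou1 stood at 489 CPM, above every control. Circadian clock genes had a median of −0.34 with 4 of 22 above 0 without the 2 mice, and −0.16 with 6 above 0 with them. Nr1d2, a repressor of the clock, was −1.01 ± 0.27 without them (adjusted p = 0.0791), and 0 clock genes were called.

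Several list medians changed sign with the removal of mice 13 and 20, by most in the next 4 lists. Immune-cell markers had a median of 1.25 over 18 genes with all mice and −1.08 over 19 without the 2. Mitochondrially encoded genes went from 0.59 to −0.18, with 8 of 8 above 0 at first and 0 of 8 after. The 4 tested markers of stellate cells, fibroblasts and pericytes went from 0.69 to −1.40, and 5 nuclear RNAs from 0.83 to −0.07. The immune marker Cd79a (1.00 ± 0.33, adjusted p = 0.277, with all mice) was lowest among DT mice in mouse 20, at 7.89 CPM. Acinar markers had medians of 0.34 and 0.42 and no call, with sums that overlapped between groups. Red blood cell genes summed to at most 2.11 CPM.

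**Figure D5:**
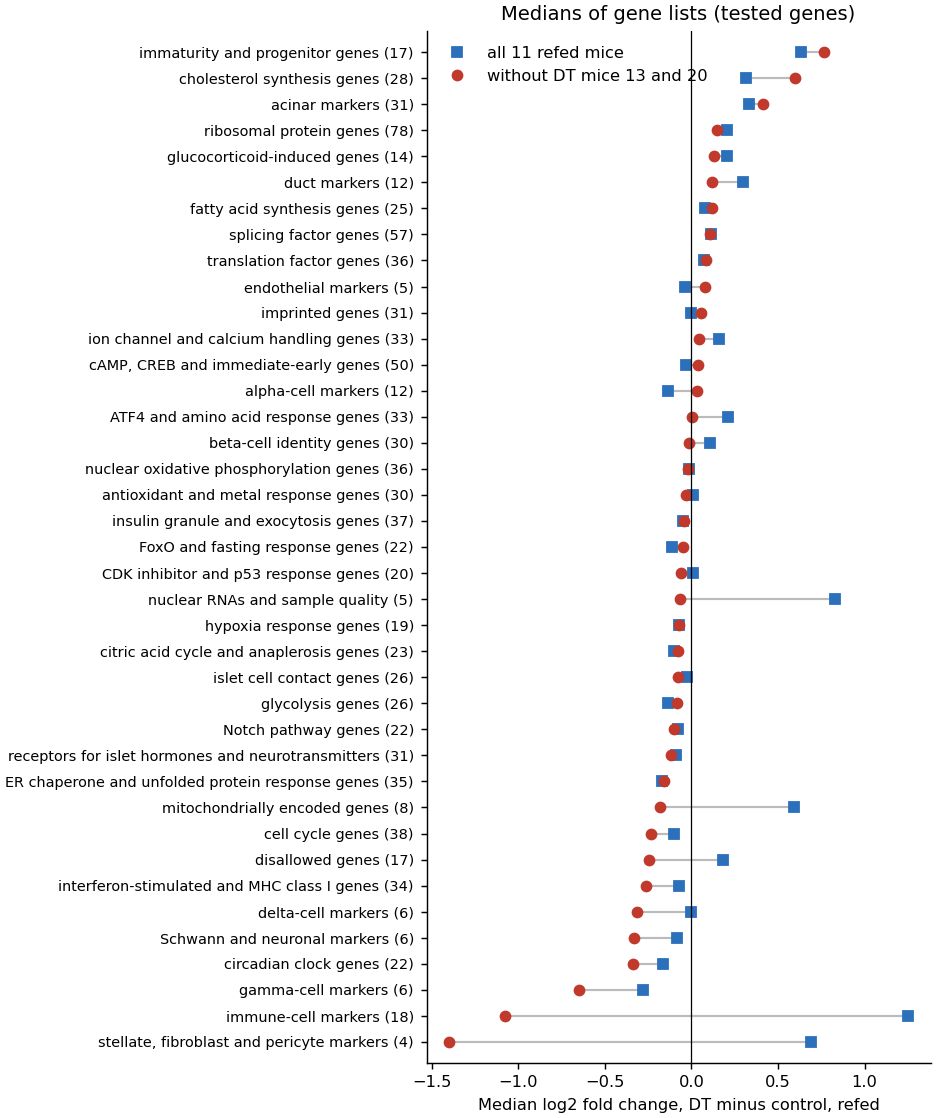
Median log2 fold change, DT minus control in refed mice, of each gene list with tested members (number tested with all mice in brackets), with all 11 mice (squares) and without mice 13 and 20 (circles). Cholesterol synthesis genes lie at 0.31 and 0.60, while immune-cell markers move from 1.25 to −1.08.

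Whether the effect of DT in refed mice differed from that in fasted mice, 6 DT against 5 controls of the same genotype, was tested as an interaction. With all libraries 1 gene passed (0.00711%), Selenbp1, and without refed DT mice 13 and 20, 14 did (0.0979%). The refed minus fasted difference in log2 effect was above 0 in 11 of these and below 0 in 3. Of these 14, 13 were among the 175 calls, and Rsph4a was not. Apart from Selenbp1, Duxbl1 and Cadps the 14 were named after their values were seen. In fasted mice 83 of the 175 genes lay on the same side (47.4%, against 50.8% of all tested genes), and 2, Gcg and Sst, were called the same way.

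The DT effect on Jup was larger after refeeding by 1.07 ± 0.16 (adjusted p = 0.0116). Means and SDs were 80.0 ± 9.92 CPM in the 5 fasted controls, 77.1 ± 5.90 in the 6 fasted DT mice, 59.0 ± 10.5 in the 5 refed controls and 116 ± 8.65 in the 4 refed DT mice other than 13 and 20. Cadps differed by −2.31 ± 0.43 (adjusted p = 0.0395): its mean was 16 ± 3.77 CPM in fasted controls and 31.2 ± 15.1 in fasted DT mice, then 25.3 ± 8.00 in refed controls and 9.61 ± 2.33 in the 4 refed DT mice. The fasted DT mice were uneven: mice 6, 7 and 8 had 17.9, 19.8 and 17.9 CPM, within the fasted control range of 11.5 to 20.7, and mice 9, 10 and 11 had 41.0, 54.4 and 36.2 CPM, above it.

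For Plscr3 (1.11 ± 0.20, adjusted p = 0.0395), Rara, the retinoic acid receptor α (0.74 ± 0.14, adjusted p = 0.0496), Bmpr1b, a BMP receptor (2.63 ± 0.48, adjusted p = 0.0395), and Selenbp1, the control mean was higher in fasted than in refed mice. Rara read 17.6 ± 1.83 CPM in fasted controls, 16.9 ± 1.01 in fasted DT, 8.41 ± 0.504 in refed controls and 13.2 ± 1.69 in the 4 refed DT mice. Bmpr1b read 7.57 ± 2.48, 5.23 ± 1.64, 1.26 ± 0.482 and 5.33 ± 2.44 CPM in the same order. In both genes the refed DT mean lay between the refed control and the fasted control mean. Selenbp1 ran from 3.09 to 8.04 CPM in fasted controls and from 1.36 to 3.80 CPM in fasted DT mice. DT mouse 11, at 3.80 CPM, was within the fasted control range. The DT values of Selenbp1 thus tended lower in fasted mice, whereas every refed DT mouse lay above every refed control.

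The interaction of Gabbr2 did not pass (−1.24 ± 0.34, adjusted p = 0.126). It read 6.23 ± 1.48 CPM in fasted controls, 6.56 ± 2.25 in fasted DT, 19.5 ± 3.29 in refed controls and 8.50 ± 2.29 in the 4 refed DT mice. The refed control mice enter both the DT effect and any effect of refeeding, so these levels are given side by side and the 2 effects are not compared. The others that passed were Mapk13, Id2, Anpep, Macroh2a2, Rsph4a and Duxbl1, with refed minus fasted differences of 0.67 to 4.58. Dmpk (−1.42) and Hykk (−4.67) also passed, with differences below 0.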

How the data were processed

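Bulk RNA-seq of sorted β-cells was used, 1 library per mouse. Per the submitters' processing notes, STAR 2.7.2b, HTSeq 0.9.1, DESeq2 1.28.1 and GRCm38.p6 were used; strand setting, annotation and parameters are not given in the sources used here. The values are raw counts per gene as deposited, with 16803188 to 24988880 per refed library. Of 52327 genes, 24242 had no count and 14064 passed edgeR's filter on low counts; the 14021 others with counts held at most 0.176% of a library.

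All 22 libraries were fitted by edgeR 4.0.16 (R 4.3.3; TMM, robust quasi-likelihood, 1 mean per group), with Benjamini-Hochberg adjustment over all genes. The comparison was repeated without refed DT mice 13 and 20 (14295 genes), and the feeding state interaction came from the same fits. Hormones were tested by exact permutation of mean log2(CPM + 1). limma 3.58.1 and DESeq2 1.42.0 served as alternatives. No 2 libraries were identical (r 0.859 to 0.967 between refed libraries). Each library is a different mouse, and p-values measure the spread between mice.

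Genes named were every call with all mice; at a mean log2 CPM of at least 3, the 12 per direction with the largest fold change among non-overlapping genes and among calls without mice 13 and 20; the insulin and ablated-cell hormone genes; and up to 4 members of each list by p in each fit. Members and lists were chosen with earlier results of these data known. Some genes of the lists are counted in them but not reported here by name.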

Additional observations from a re-analysis of the deposited data

Results flagged for a closer look

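Of 210 sets of 5 or 6 values examined, 19 had 1 mouse separated from the rest of its group by a gap large against the group's range, and chance alone gives about 1 in 20. DT mouse 13 was that mouse for Ins1 (310000 CPM), Ins2 (917000 CPM), Cyp4f13 (29.7 CPM), Hpcal1 (39.8 CPM) and Gstm2 (29.5 CPM), all high, and for Enpp5 (73.8 CPM), Pcsk1 (178 CPM) and Galr1 (23.6 CPM), all low. The same library stood apart in its insulin share of counts (69.4%), its TMM factor (0.567) and its number of genes with a count (15863). CPM with TMM-scaled library sizes can exceed the share of raw counts, so the insulin values of mouse 13 are read with its low TMM factor. DT mouse 20 stood apart with low Ffar4 (1.57 CPM), Anpep (15.5 CPM) and Neurog3 (0.19 CPM). Among controls, mouse 12 was low for Ffar4 (1.35 CPM) and Kctd8 (3.00 CPM), and mouse 18 for Sv2a (77.1 CPM), Ero1b (717 CPM) and Ucn3 (426 CPM).

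The DT effect differed between refed and fasted mice, by an interaction term in edgeR's fit over all genes, for Selenbp1 with all libraries (refed minus fasted log2 effect 3.18, adjusted p = 0.0109). Without refed DT mice 13 and 20 the same test passed for 14 genes. The refed minus fasted difference was above 0 for Duxbl1 (4.58), Selenbp1 (3.31), Bmpr1b (2.63), Rsph4a (2.61), Mapk13 (1.80) and Anpep (1.23). So it was for Plscr3 (1.11), Jup (1.07), Id2 (1.04), Rara (0.74) and Macroh2a2 (0.67). It was below 0 for Hykk (−4.67), Cadps (−2.31) and Dmpk (−1.42). The sign gives the direction of the difference and not a stronger or weaker effect. Adjusted p-values of these 14 ran from 0.0116 to 0.0496.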

How the results depend on the processing

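No paired analysis was possible because each mouse number occurs once. The count of calls with all mice, 5, became 175 without DT mice 13 and 20, 2 with the 11 refed libraries alone, 1 at a mean log2 CPM of at least 3, 86 with DESeq2, 1 with limma voom, 78 with voom and library quality weights, and 11 with either acinar markers or the mitochondrial share as a covariate. Leaving out 1 mouse at a time gave 1 to 52 calls. The 175 calls without mice 13 and 20 became 391 with DESeq2 and 35 with refed libraries alone, and 8 to 326 with 1 more mouse left out. The interaction gave 1 gene with all mice and 14 without mice 13 and 20. Non-overlapping genes numbered 139 with all mice, 715 without mice 13 and 20, and 186 to 375 with 1 mouse left out, since fewer samples must separate. With RLE in place of TMM scaling 134 genes did not overlap. Of these 73 were higher and 61 lower, against 60 and 79 with TMM, so the balance of directions turned on the scaling. The Pyy difference passed without DT mouse 13 (−1.30) and without DT mouse 15 (−1.26); over all single omissions it ran from −1.30 to −0.79. In all other cases the cause was not tested. For single genes 3010 values kept their side of the threshold, 369 lost a call, 173 gained one and 8 moved. Genes without a call could change sign. All 8 tested mitochondrially encoded genes lay above 0 with all mice, and 0 of 8 did without mice 13 and 20. Upper limits at 0 reads, 3 counts per library, were 0.121 to 0.274 CPM and cover counting error only.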
